A study of Rattus norvegicus with 18 samples.

Results

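Solute carriers are membrane proteins that move ions, metals, amino acids, sugars, vitamins and metabolic intermediates across the plasma membrane and the membranes of organelles. The genes described here are 131 of the 18923 genes listed for rat nucleus pulposus. The nucleus pulposus is the gel-like centre of the intervertebral disc, and its libraries came from rats aged 2, 10 and 20 months. A gene was kept when its symbol had the plain solute carrier form (Slc, a family number, a letter and a member number) and its mean over the 9 libraries was at least 2 FPKM. FPKM is the number of sequenced fragments scaled to transcript length and to library depth, so levels of different genes are on a per-length scale. Of 274 genes with that symbol form, 134 fell under the minimum. The lactate, glucose, sulphate and taurine transporter genes Slc16a1, Slc16a3, Slc2a1, Slc2a3, Slc26a2 and Slc6a6 were left out by name, and 3 genes (Slc11a1, Slc11a2 and Slc17a5) were left out because their pathway entry is Lysosome. Slc5a3 was not analysed here.

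The labels give 3 groups of rat nucleus pulposus, from animals aged 2, 10 and 20 months, with 3 input libraries each of poly(A) RNA that was not immunoprecipitated. They give no strain, sex or treatment, and they do not say whether a library came from 1 animal or from pooled animals. Each p-value therefore reflects no more than the spread among libraries of the same age, which may be technical. That spread was pooled over the 3 ages, so a p-value at 10 against 2 months also carries the 20-month spread. A p-value that involves 20 months likewise carries the smaller spread of the younger ages and can be too low. Replicates correlated at 0.984 to 0.988 at 20 months, against 0.991 to 0.993 at the younger ages. The tissue is bulk, so a smaller number of expressing cells and less RNA per cell cannot be told apart. The matching libraries made with an antibody against N6-methyladenosine were not analysed here.

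The nucleus pulposus has no blood vessels of its own. Its cells take up nutrients that diffuse in through the end plates and the matrix, live in a hyperosmotic and acidic fluid, and keep cell volume and pH with chloride cotransporters and ion exchangers. Nucleotide sugar carriers of the endoplasmic reticulum and Golgi deliver the building blocks of the proteoglycans that hold water in the disc. Zinc importers of the Slc39 family raise cytosolic zinc and exporters of the Slc30 family lower it, and the Slc25 family links the cytosol with the mitochondrial matrix.

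Libraries held between 3.53 and 5.04 gigabases of aligned sequence, and replicate libraries correlated at 0.984 to 0.993 across genes on the log2 scale. Summed FPKM of the nucleus pulposus markers in the tables (7 of 8, among them Krt8, Krt18, Krt19, Cd24, Acan and Col2a1) lay between 17281 and 18387 at 2 months, 13841 and 14018 at 10 months, and 14228 and 14780 at 20 months, while the notochord gene Shh was at 0 in 8 of 9 libraries. The 20-month libraries stood apart in more than age. Their transcripts of mitochondrial origin made up 0.0846 to 0.1% of summed FPKM, against 0.430 to 0.650% at the younger ages. Ribosomal protein genes made up 20.3 to 20.9% at 20 months, against 16.3 to 16.5% at 10 months and 13.9 to 14.3% at 2 months, and the most frequent read length was 141 bases at 20 months, against 132 bases at the younger ages. These features and age cannot be told apart. The median difference of all 11708 tested genes was -0.20 on the log2(FPKM + 1) scale at 20 against 2 months and -0.23 at 20 against 10 months. Rescaling each library by the median of ratios brought both medians to -0.01. Differences that involve 20 months are as deposited unless rescaling is named beside them. Skeletal muscle markers summed to 212.6 FPKM in 20-month replicate 3, against 2.18 FPKM in the lowest 20-month library, 11.9 to 13.4 FPKM at 10 months and 17.9 to 19.9 FPKM at 2 months.

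The 131 genes belong to 37 families and were placed by family number into 11 substrate classes, of which the mitochondrial carriers (31 genes), metal transporters (23 genes) and carriers for nucleotide sugars and other endomembrane substrates (22 genes) were the largest. Mean levels ran from 2.03 FPKM for Slc9b2 to 322.7 FPKM for Slc12a2, with a median of 10.1 FPKM. Levels of at least 100 FPKM were reached by 3 genes, at least 20 FPKM by 37 genes and at least 10 FPKM by 67 genes. The 5 highest genes held 31.6% of the summed FPKM of all 131. Just inside the minimum of 2 FPKM lay Slc9b2 (2.03), Slc39a3 (2.07), Slc19a1 (2.08) and Slc39a10 (2.14), and just outside lay Slc2a4 (1.98), Slc43a3 (1.92), Slc4a9 (1.88) and Slc16a7 (1.82). Slc39a10 passed only through its 2-month mean of 4.08 FPKM, with 1.645 and 0.702 FPKM at 10 and 20 months. Slc9b2 passed only through its 20-month mean of 2.97 FPKM, with 1.435 and 1.675 FPKM at 2 and 10 months. Slc30a1 also reached the minimum only with its 20-month libraries, with means of 1.447, 2.13 and 2.977 FPKM at 2, 10 and 20 months. Slc38a4 (3.68, 2.28 and 0.904 FPKM) and Slc39a3 (2.963, 2.228 and 1.029 FPKM) reached it only with their 2-month libraries. The sizes of the differences of all these genes are therefore tied to the minimum. All 131 entered the fit, and 128 had at least 1 FPKM in all 9 libraries. Their share of summed FPKM was 0.644 ± 0.0024% in the 2-month libraries, 0.645 ± 0.0034% in the 10-month libraries and 0.549 ± 0.0058% in the 20-month libraries (SD over 3 libraries).

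At 10 against 2 months, solute carrier genes moved in both directions, with 21 genes higher and 30 lower at an adjusted p under 0.05 in limma. These are 16% and 22.9% of the 131, beside 19% of all tested genes called higher and 11.4% called lower in the same comparison (30.3% in either direction). Among all genes with a mean of at least 2 FPKM, 20.2% were called higher and 12% lower. All 10-month libraries lay above all 2-month libraries for 37 members and below them for 50 members, beside 32.3% and 21.5% of all tested genes. Leaving out a library lowered these counts. There were 13 risers and 18 fallers without 2-month replicate 1, and 13 risers and 16 fallers without 10-month replicate 1. Fallers numbered 17 without 2-month replicate 2 and 19 without 10-month replicate 2. Calls over all tested genes also dropped in these fits, from 3551 to 2559, 2516, 2561 and 2504 in the same order. The median difference of the 131 was -0.03, against 0.04 for all tested genes. Among the genes that rose were the chloride cotransporter gene Slc12a2, the bicarbonate family gene Slc4a11 and the glutamate transporter gene Slc1a1, and among those that fell were the zinc importer genes Slc39a10 and Slc39a4 and the nucleoside transporter gene Slc29a1. After rescaling, 17 were called higher and 38 lower, beside 15.2% and 14.5% of all tested genes.

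At 20 against 2 months most solute carrier genes were lower. As deposited, 87 of 131 fell and 16 rose, or 66.4% and 12.2%, beside 49.6% and 18.6% of all tested genes (68.2% in either direction) and 51.5% and 18.9% of all genes with a mean of at least 2 FPKM. No overlap between the libraries of the 2 ages was seen for 87 lower and 15 higher members, beside 51% and 19.4% of all tested genes. The median difference was -0.34, against -0.20 for all tested genes. After rescaling, 60 were called lower and 24 higher, or 45.8% and 18.3%, beside 32.2% and 30.4% of all tested genes, and the median was -0.16 against -0.01. Every one of the 60 that fell after rescaling had also fallen as deposited, and all 16 that rose as deposited rose after rescaling. Size factors averaged 0.896 at 20 months and 1.04 at 2 months, so rescaling moves every difference in this comparison upward. That nesting is therefore largely built in and is no separate evidence for the calls. Mean FPKM was more than 2-fold higher at 20 months for 4 genes (Slc25a33, Slc1a4, Slc9b2 and Slc30a1), and it was less than 0.5 of the 2-month mean for 14 genes. Of these, Slc9b2 and Slc30a1 reached the minimum level only with their 20-month libraries. Slc39a10, Slc38a4 and Slc39a3, among the 14, did so only with their 2-month libraries. Without 20-month replicate 3, which held the muscle transcripts, 84 fell and 16 rose. The comparison of 20 with 10 months uses the same 20-month libraries and gave 90 genes lower and 8 higher, beside 53.3% and 11.4% of all tested genes (64.7% in either direction) and 55.8% and 11.8% of those with a mean of at least 2 FPKM. After rescaling it gave 52 lower and 23 higher, beside 26.6% and 25.9%. Libraries did not overlap for 87 lower and 7 higher members, beside 55.3% and 12.6% of all tested genes.

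**Figure D1:**
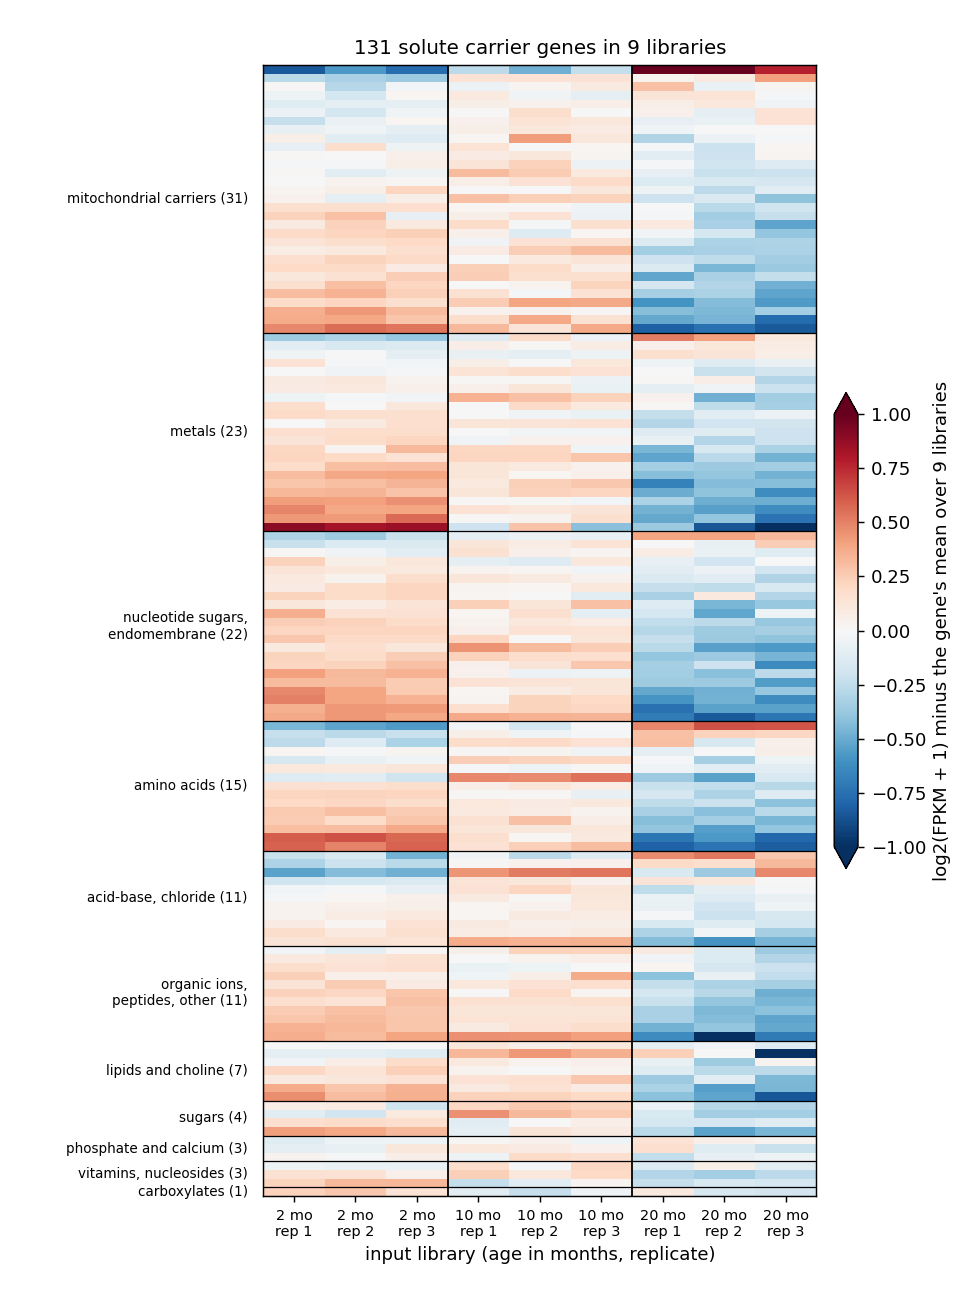
Heat map of the 131 solute carrier genes (rows, grouped by substrate class with the number of genes in brackets, sorted within a class by the 20 against 2 month difference) in the 9 libraries (columns). Colour gives log2(FPKM + 1) minus the gene's own mean over the 9 libraries, red above and blue below it, and most rows are blue in the 3 columns of 20 months, where 87 of 131 genes fell against 2 months.

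**Figure D2:**
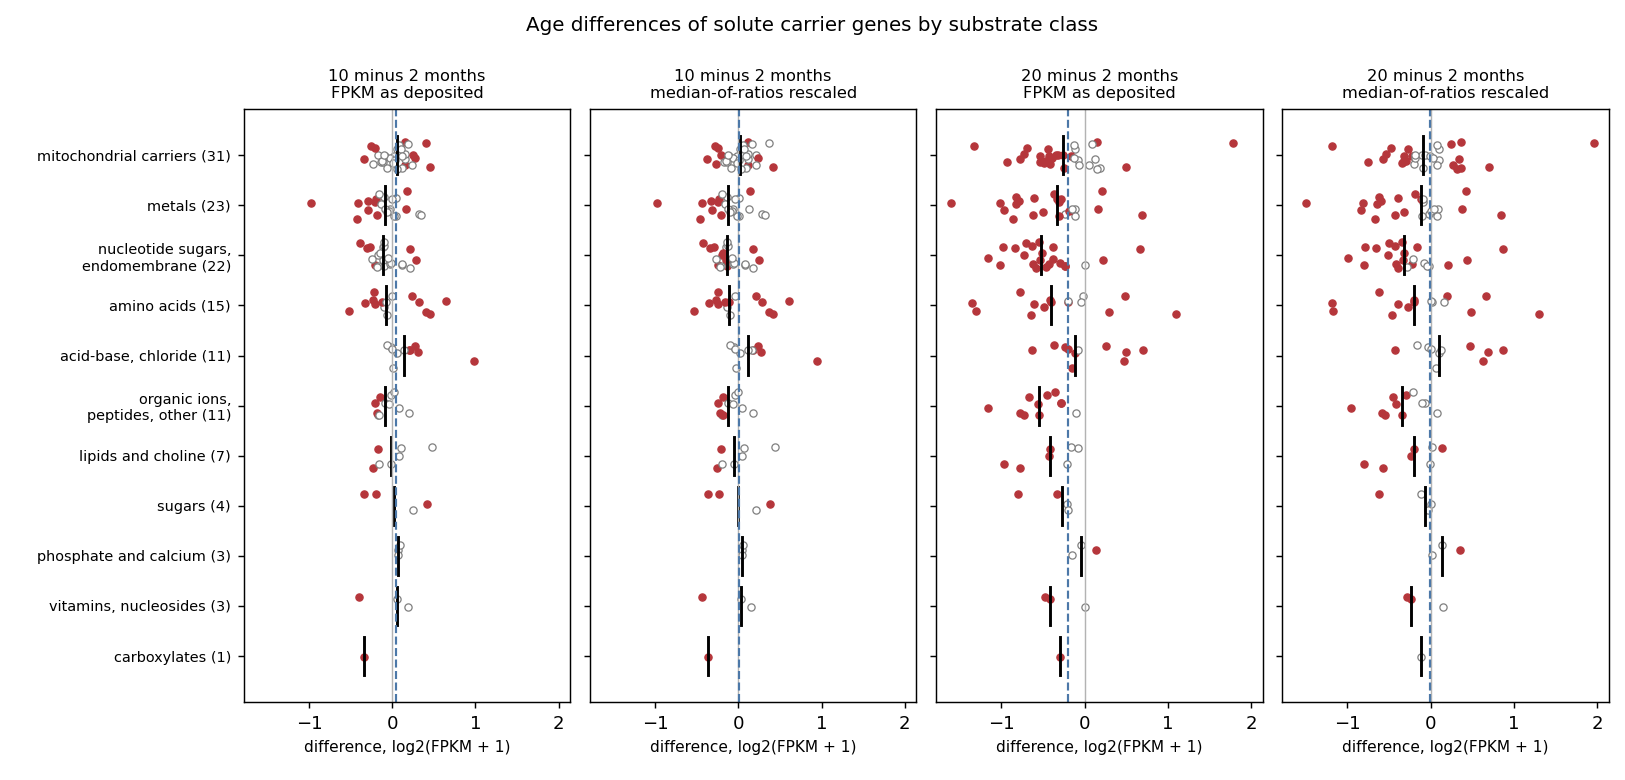
Differences in log2(FPKM + 1) of each gene (points) by substrate class, 10 minus 2 months and 20 minus 2 months, each with FPKM as deposited and after median-of-ratios rescaling. Filled red points passed an adjusted p of 0.05 in limma, open points did not, black bars are class medians and the dashed blue line is the median of all tested genes, which moved to -0.01 after rescaling at 20 against 2 months.

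Among the 11 acid-base and chloride transporter genes, 5 rose and 0 fell at 10 against 2 months, and 0 of the 11 were lower at an unadjusted p under 0.05 in limma. The calls are 45.5% and 0% of the class, beside 19% and 11.4% of all tested genes. Slc12a2, the sodium-potassium-chloride cotransporter that brings chloride into cells, had the highest level of all 131 genes. It stood at 279, 285 and 290 FPKM at 2 months, 352, 347 and 332 FPKM at 10 months, and 351, 345 and 323 FPKM at 20 months. Every library of the 2 older ages was above every 2-month library, while the older ages overlapped. The difference from 2 months was 0.27 ± 0.04 (SE) at 10 months with an adjusted p of 0.00112 in limma, and 0.25 ± 0.04 at 20 months with an adjusted p of 0.000368. After rescaling the 20-month difference was 0.47. At 20 against 10 months the difference was an uncalled -0.02 as deposited and a called 0.24 after rescaling (limma adjusted p = 0.000638). Whether Slc12a2 rose further after 10 months therefore depends on the scale.

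Slc4a11, a bicarbonate family member that conducts protons, was at 4.32, 4.61 and 4.68 FPKM in 10-month libraries, against 1.71, 1.896 and 1.805 FPKM in 2-month libraries. The groups were far apart, and the difference of 0.98 ± 0.18 was the largest rise among the 131 at that age (limma adjusted p = 0.00383). At 20 months its libraries held 2.52, 2.04 and 4.46 FPKM, and the high value was replicate 3, the library with muscle transcripts, whose part in this value was not tested. The 20 against 2 month difference was 0.47 with all libraries and 0.22 without that replicate, and its call was lost in 6 of the other fits that left out a library.

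Slc4a3, a chloride-bicarbonate exchanger, rose at both older ages, to 7.28 FPKM at 10 months and 8.46 FPKM at 20 months, against 5.71 FPKM at 2 months. Slc9b2, a sodium-proton exchanger, held 3.10, 3.26 and 2.56 FPKM at 20 months, against 1.52, 1.66 and 1.12 FPKM at 2 months, and the 2 groups did not overlap. It passed the minimum level only through its 20-month libraries. Its difference was 0.71 ± 0.11 as deposited (limma adjusted p = 0.000436) and 0.86 after rescaling. The potassium-chloride cotransporters Slc12a4 and Slc12a7, which carry chloride out of cells, fell by 0.15 and 0.11 at 20 against 2 months as deposited, but stood at 0.06 and 0.10 after rescaling, so their direction depends on the scale.

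Slc4a2, the widespread chloride-bicarbonate exchanger, read 15.5, 14.6 and 15.4 FPKM at 2 months, 14.4, 14.3 and 14.5 FPKM at 10 months, and 10.8, 13.4 and 10.6 FPKM at 20 months. Its 20 against 2 month difference of -0.37 ± 0.08 (limma adjusted p = 0.00224) became -0.16 after rescaling, without a call. Of the 11 genes, 6 fell and 4 rose at 20 against 2 months as deposited, and 1 fell and 4 rose after rescaling. As deposited these are 54.5% and 36.4%, beside 49.6% and 18.6% of all tested genes. After rescaling they are 9.09% and 36.4%, beside 32.2% and 30.4%.

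The 15 amino acid transporter genes split in both directions. At 10 against 2 months 5 rose and 6 fell (33.3% and 40%, beside 19% and 11.4% of all tested genes). At 20 against 2 months 3 rose and 9 fell, and 4 rose and 8 fell after rescaling. The risers at 20 months were 20% of the class as deposited and 26.7% after rescaling, beside 18.6% and 30.4% of all tested genes. The fallers at 20 months were 60% of the class as deposited and 53.3% after rescaling, beside 49.6% and 32.2% of all tested genes. Slc1a4, an exchanger of alanine, serine and cysteine, rose at each step. It stood at 6.60, 6.23 and 6.03 FPKM at 2 months, 9.21, 8.21 and 9.43 FPKM at 10 months, and 13.6, 15.2 and 15.1 FPKM at 20 months. No library of one age overlapped with those of another. The difference was 0.45 ± 0.07 at 10 against 2 months (limma adjusted p = 0.00125), 1.1 ± 0.07 at 20 against 2 months (1.21e-06) and 0.65 ± 0.07 at 20 against 10 months (4.02e-05). After rescaling the last comparison gave 0.89.

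Slc1a1, a transporter of glutamate and cysteine, peaked in the middle age. Its 10-month libraries held 24.6, 24.4 and 25.7 FPKM, against 15.7, 15.9 and 15.0 FPKM at 2 months, and at 20 months it held 13.2, 11.7 and 15.5 FPKM. The 10-month libraries lay above all others. The rise at 10 months was 0.65 ± 0.08 (limma adjusted p = 0.00061), the fall at 20 against 10 months was 0.85 as deposited and 0.61 after rescaling, and the 20 against 2 month difference of -0.20 was not called (limma adjusted p = 0.0569). Slc7a6, a partner-dependent exchanger of cationic and neutral amino acids, had the same order of means, with 22.8 FPKM at 2 months, 28.6 FPKM at 10 months and 22.2 FPKM at 20 months. Slc6a12, the betaine and GABA transporter, rose at both older ages, to 5.51 FPKM at 10 months and 5.09 FPKM at 20 months, against 3.92 FPKM at 2 months. Each of these calls of Slc7a6 and Slc6a12 against 2 months was lost in at least 1 fit that left out a library, and the 20-month difference of Slc6a12 was 0.30 with all libraries and 0.18 without 20-month replicate 1.

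The Slc38 family, sodium-coupled and lysosomal transporters of glutamine and other neutral amino acids, gave the deepest falls of the class. Slc38a7, which exports glutamine from lysosomes, held 7.04, 6.55 and 7.06 FPKM at 2 months, 4.91, 5.30 and 5.63 FPKM at 10 months, and 2.06, 2.20 and 2.02 FPKM at 20 months. The ages did not overlap, and the mean at 20 months was 0.304 of that at 2 months. The differences from 2 months were -0.33 ± 0.06 at 10 months (limma adjusted p = 0.00459) and -1.35 ± 0.06 at 20 months (3.11e-07), the last being -1.19 after rescaling. Slc38a4, an amino acid transporter of the plasma membrane, read 3.68, 3.78 and 3.57 FPKM at 2 months, 2.43, 2.12 and 2.29 FPKM at 10 months, and 0.863, 1.06 and 0.787 FPKM at 20 months. It reached the minimum level only with its 2-month libraries. It too fell at each step, by 0.51 ± 0.08 at 10 months and by 1.3 ± 0.08 at 20 months against 2 months (limma adjusted p = 0.00139 and 1.13e-06), the last being -1.175 after rescaling. Slc38a9, the arginine sensor of the lysosome, fell by 0.77 at 20 against 2 months and by 0.62 after rescaling.

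Slc38a10, another of the family, fell by 0.41 at 20 against 2 months (limma adjusted p = 1.07e-05) and by 0.20 after rescaling, both called. Slc38a2, which is known to be induced by amino acid shortage and hyperosmolarity, was at 97.2, 98.2 and 97.5 FPKM at 2 months, 84.5, 84.8 and 79.7 FPKM at 10 months, and 74.4, 67.7 and 76.7 FPKM at 20 months. It fell by 0.23 ± 0.05 at 10 months and 0.42 ± 0.05 at 20 months against 2 months (limma adjusted p = 0.00657 and 5.48e-05). Its fall at 20 against 10 months was 0.19 as deposited and turned to 0.07 after rescaling. Slc38a1, a neutral amino acid transporter, stayed within 69.6 to 70.5 FPKM in its means at the 3 ages and was not called as deposited, though rescaling gave a called 0.20 at 20 against 2 months. Slc38a6, a less well characterised relative, rose to 4.88, 4.61 and 4.52 FPKM at 20 months, against 3.08, 2.98 and 3.10 FPKM at 2 months, with 3.99, 3.66 and 3.73 FPKM between them at 10 months. Its differences from 2 months were 0.24 ± 0.06 at 10 months (limma adjusted p = 0.0122) and 0.48 ± 0.06 at 20 months (6.39e-05), with 0.66 at 20 months after rescaling.

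Slc3a2 is the heavy chain that pairs with several amino acid exchangers. It had 66.9, 67.2 and 65.7 FPKM at 2 months, 62.6, 61.6 and 62.6 FPKM at 10 months, and 48.4, 49.8 and 43.5 FPKM at 20 months, and fell by 0.49 ± 0.05 at 20 against 2 months (limma adjusted p = 1.94e-05) and by 0.27 after rescaling. Its light chain Slc7a5, a large neutral amino acid transporter, lay under the minimum level and went the other way, with 2.23, 2.87 and 2.41 FPKM at 20 months, against 1.27, 1.07 and 0.916 FPKM at 2 months (difference 0.75, limma adjusted p = 0.000395). Slc7a11, the light chain that imports cystine, had at most 0.00898 FPKM in any library, and the glutamine transporter Slc1a5 at most 0.505 FPKM. Slc7a2, a carrier of arginine and lysine, fell by 0.20 at 10 months and by 0.61 at 20 months against 2 months, the last by 0.40 after rescaling. The creatine transporter Slc6a8 held 26.6, 26.6 and 26.97 FPKM at 2 months, 24.6, 23.9 and 24.9 FPKM at 10 months, and 23.96, 22.8 and 22.8 FPKM at 20 months. Its differences from 2 months were small, -0.12 ± 0.04 at 10 months and -0.20 ± 0.04 at 20 months (limma adjusted p = 0.0293 and 0.000933), and the last became 0.01 after rescaling. The 10-month call of Slc6a8 was lost in 5 of the fits that left out a library.

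Metal transporter genes moved mostly downward. Of 23 genes, 8 fell and 2 rose at 10 against 2 months, and 16 fell and 3 rose at 20 against 2 months, or 12 and 3 after rescaling. The 10-month calls are 34.8% and 8.7%, beside 11.4% and 19% of all tested genes. The risers at 20 months were 13% in both scales, beside 18.6% as deposited and 30.4% after rescaling. The fallers at 20 months were 69.6% of the class as deposited and 52.2% after rescaling, beside 49.6% and 32.2% of all tested genes. Within them the zinc importer family Slc39 (12 genes) had 6 fallers and 1 riser at 10 months, and 9 fallers and 1 riser at 20 months against 2 months. After rescaling these were 6 and 0 at 10 months and 7 and 1 at 20 months. Of all tested genes, 14.5% fell and 15.2% rose at 10 months after rescaling, and the other shares are those given above. The deepest fall among all 131 genes was that of Slc39a10, a zinc importer of the plasma membrane that passed the minimum level only through its 2-month libraries. Its libraries read 4.21, 3.98 and 4.05 FPKM at 2 months, 1.42, 2.42 and 1.096 FPKM at 10 months, and 1.18, 0.547 and 0.378 FPKM at 20 months. All older libraries lay below all 2-month libraries, while the 2 older ages overlapped, and the 20-month mean was 0.172 of the 2-month mean. The difference from 2 months was -0.97 ± 0.20 at 10 months (limma adjusted p = 0.00709) and -1.60 ± 0.20 at 20 months (0.000105). The 20 against 10 month difference of -0.63 was called as deposited (0.0217) and not after rescaling (0.0617).

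Slc39a4, the importer best known from the intestine, stood at 18.3, 18.2 and 20.2 FPKM at 2 months, 13.4, 13.7 and 15.0 FPKM at 10 months, and 9.05, 9.96 and 7.60 FPKM at 20 months. The 3 ages were fully separated. It fell by 0.41 ± 0.09 and by 1.02 ± 0.09 against 2 months (limma adjusted p = 0.00847 and 9.84e-06), the last by 0.82 after rescaling. Slc39a3 and Slc39a9, the last of the Golgi, fell by 0.97 and 0.79 at 20 against 2 months and by 0.84 and 0.59 after rescaling. Slc39a3 reached the minimum level only with its 2-month libraries. Slc39a14, an importer of zinc, iron and manganese and the most abundant metal transporter here, had 67.0, 65.5 and 65.7 FPKM at 2 months, 58.7, 57.1 and 55.8 FPKM at 10 months, and 49.6, 54.4 and 56.3 FPKM at 20 months. Both older ages were below 2 months, by 0.20 ± 0.05 and 0.30 ± 0.05 (limma adjusted p = 0.0104 and 0.000347), and the 20-month difference was -0.09 and uncalled after rescaling. The riser of the family at 20 months was Slc39a7, which releases zinc from the endoplasmic reticulum, with 28.9 FPKM at 20 months, against 25.7 FPKM at 2 months (difference 0.16, limma adjusted p = 0.00531, and 0.37 after rescaling).

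Among the 6 Slc30 exporters 3 fell and 2 rose at 20 against 2 months, and 2 fell and 2 rose after rescaling. Of all tested genes 49.6% fell and 18.6% rose, or 32.2% and 30.4% after rescaling. The plasma membrane exporter Slc30a1 rose, and it reached the minimum level only with its 20-month libraries. It held 3.45, 3.13 and 2.35 FPKM at 20 months, against 1.44, 1.51 and 1.39 FPKM at 2 months, and 1.84, 2.56 and 1.99 FPKM at 10 months. The 20-month libraries were all above the 2-month ones and overlapped with those of 10 months. The difference from 2 months was 0.69 ± 0.12 at 20 months (limma adjusted p = 0.000791; 0.85 after rescaling) and 0.35 ± 0.12 at 10 months, where it was not called (0.0568). Slc30a9, which exports zinc from mitochondria, rose by 0.18 at 10 months and 0.21 at 20 months, the last by 0.42 after rescaling. Slc30a4 and Slc30a6, exporters into vesicles and the secretory pathway, fell by 0.62 and 0.82 at 20 against 2 months, and by 0.43 and 0.64 after rescaling.

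**Figure D3:**
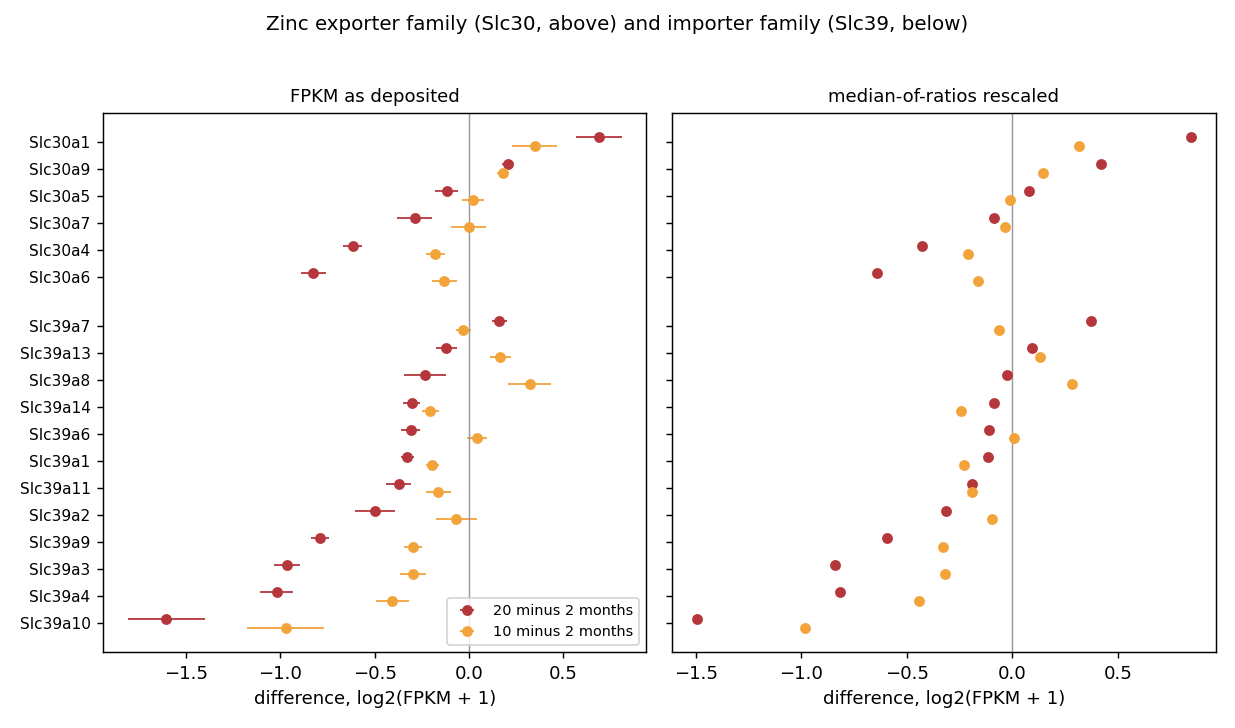
Differences in log2(FPKM + 1) of the 6 Slc30 and 12 Slc39 genes, 20 minus 2 months (red) and 10 minus 2 months (orange), as deposited with standard errors from limma (left) and after median-of-ratios rescaling (right). Slc30a1 lies at 0.69 and Slc39a10 at -1.60 as deposited at 20 against 2 months. Rescaling moves every 20 minus 2 month difference upward, and Slc39a10 stays below 0.

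Genes that buffer and sense zinc moved beside these transporters. The metallothionein gene Mt2A held 734.9, 683.6 and 680.5 FPKM at 20 months and 338.6, 341.2 and 337.4 FPKM at 10 months, against 185.1, 176.6 and 178.2 FPKM at 2 months, with no overlap between ages and a 20 against 2 month difference of 1.95 (limma adjusted p = 1.07e-08) that was 2.17 after rescaling. Mt1, its neighbour in the same family, was highest at 10 months with 167.9 ± 4.23 FPKM, against 104.0 ± 2.11 FPKM at 2 months, and fell to 65.1 ± 9.02 FPKM at 20 months (SD, n = 3 each). Its 20 against 2 month difference was -0.68 as deposited and -0.46 after rescaling, both called. Mtf1, the zinc-sensing transcription factor, was at 0.965 ± 0.039 FPKM at 20 months, against 2.45 ± 0.11 FPKM at 2 months (difference -0.81, limma adjusted p = 1.59e-05, and -0.69 after rescaling).

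Of the 5 genes for other metals, none was called higher in limma as deposited in any of the comparisons. The magnesium transporter Slc41a2 went down at both steps, with 13.9, 13.8 and 14.2 FPKM at 2 months, 10.2, 10.2 and 9.94 FPKM at 10 months, and 7.96, 6.91 and 6.94 FPKM at 20 months. The ages did not overlap, and the differences from 2 months were -0.43 ± 0.05 and -0.86 ± 0.05 (limma adjusted p = 0.000607 and 1.66e-06), the last being -0.66 after rescaling. Its relative Slc41a1 fell by 0.82 at 20 against 2 months and by 0.62 after rescaling. The haem transporter Slc48a1 fell by 0.61 and by 0.39 after rescaling, with 39.1 FPKM at 20 months, against 59.9 FPKM at 2 months. The copper importer Slc31a1 was not called in any comparison as deposited, with means between 5.80 and 6.50 FPKM. The iron exporter Slc40a1 was not analysed here. The ferritin heavy chain Fth1, which stores iron, rose to 2283 ± 127.3 FPKM at 20 months, against 1461 ± 16.1 FPKM at 2 months, a difference of 0.64 as deposited and 0.86 after rescaling. The ferritin light chain Ftl1 was not called, with 61.22 ± 26.17 FPKM at 20 months, against 76.61 ± 5.439 FPKM at 2 months. The transferrin receptor Tfrc rose to 46.1 ± 1.72 FPKM at 10 months, against 33.97 ± 0.66 FPKM at 2 months. At 20 months Tfrc held 33.17 ± 0.748 FPKM. Its difference from 2 months was then an uncalled -0.03 as deposited and a called 0.18 after rescaling.

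Mitochondrial carriers, the largest class with 31 genes, had 6 risers and 3 fallers at 10 against 2 months and 3 risers and 18 fallers at 20 against 2 months, or 8 and 11 after rescaling. The fallers at 20 months were 58.1% of the class as deposited and 35.5% after rescaling, beside the 49.6% and 32.2% of all tested genes. The risers and fallers at 10 months were 19.4% and 9.68%, beside 19% and 11.4% of all tested genes. The risers at 20 months were 9.68% as deposited and 25.8% after rescaling, beside 18.6% and 30.4%, so the rescaled counts of this class lie near those of all tested genes. Its most abundant members, which serve oxidative phosphorylation, gave small differences. The phosphate carrier Slc25a3 was at 140.1, 142.3 and 143.2 FPKM at 2 months, 159.0, 157.1 and 159.1 FPKM at 10 months, and 159.3, 163.6 and 148.4 FPKM at 20 months. Both older ages were above 2 months in every library, by 0.16 ± 0.04 and 0.15 ± 0.04 (limma adjusted p = 0.0121 and 0.00684), the last being 0.36 after rescaling. At 20 against 10 months Slc25a3 gave an uncalled -0.01 as deposited and a called 0.24 after rescaling. The ADP/ATP carrier Slc25a4 held 214, 219 and 211 FPKM at 2 months, 235, 242 and 238 FPKM at 10 months, and 218, 226 and 225 FPKM at 20 months, and rose by 0.15 ± 0.03 at 10 months (0.00465). At 20 against 10 months its difference was -0.09 as deposited and 0.16 after rescaling, each past the threshold, so its direction depends on the scale. The other ADP/ATP carrier, Slc25a5, had 21.8, 22.1 and 22.5 FPKM at 2 months, 19.6, 17.2 and 19.1 FPKM at 10 months, and 18.6, 16.6 and 14.2 FPKM at 20 months. It fell by 0.41 ± 0.09 at 20 against 2 months (limma adjusted p = 0.00216), a call that rescaling took away (0.0534). Fragments of these close relatives and of their processed copies in the genome can be hard to assign, so the values of Slc25a4 and Slc25a5 are uncertain to that extent.

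The largest rise among all 131 genes was that of Slc25a33, which carries pyrimidine nucleotides into mitochondria. It lies at chr5:166701465-166726794 on the minus strand in the coordinates of the table, for which the sources used here name no build. It stood at 1.62, 2.15 and 1.77 FPKM at 2 months, 2.93, 2.38 and 2.99 FPKM at 10 months, and 10.3, 9.18 and 7.05 FPKM at 20 months. The 20-month libraries were far above the rest, with a mean 4.78 times that at 2 months. The difference was 1.78 ± 0.13 (limma adjusted p = 3.78e-06) and 1.96 after rescaling. The 10-month rise of 0.40 was called as deposited (0.046) and not after rescaling (0.0577), and it was lost in 5 of the fits that left out a library.

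Iron import into mitochondria is served by Slc25a28 and Slc25a37. Slc25a28 rose to 26.7, 26.7 and 26.7 FPKM at 10 months and 24.8, 25.8 and 32.4 FPKM at 20 months, against 19.9, 19.1 and 18.5 FPKM at 2 months. Both older ages were clear of 2 months, with differences of 0.46 ± 0.09 and 0.50 ± 0.09 (limma adjusted p = 0.00403 and 0.000719), the last being 0.71 after rescaling. Slc25a37, the form best known from red cell precursors, had 2.30, 1.94 and 1.89 FPKM at 2 months, 2.21, 3.22 and 2.42 FPKM at 10 months, and 1.56, 2.04 and 2.11 FPKM at 20 months, and neither older age was called against 2 months. Its 20 against 10 month difference of -0.31 was called as deposited (limma adjusted p = 0.0479), was -0.14 without a call after rescaling and was -0.20 without 10-month replicate 2. Red blood cell markers summed to 36.6 to 42.5 FPKM at 20 months and 9.57 to 10.6 FPKM at 10 months, against 82.9 to 93.2 FPKM at 2 months, and their part in Slc25a37 was not tested.

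Slc25a32, the folate and flavin carrier, had 7.74, 7.93 and 7.59 FPKM at 2 months, 8.17, 9.11 and 9.01 FPKM at 10 months, and 4.07, 4.68 and 4.19 FPKM at 20 months. It fell by 0.88 ± 0.06 at 20 against 10 months (limma adjusted p = 6.23e-06) and by 0.66 after rescaling. Slc25a44, a carrier of branched-chain amino acids, fell by 0.93 at 20 against 2 months, the glutathione carrier Slc25a39 by 0.69, the citrate carrier Slc25a1 by 0.54 and the acylcarnitine carrier Slc25a20 by 0.42. Each of these 4 was still called lower after rescaling. Mpc1 and Mpc2, the subunits of the mitochondrial pyruvate carrier, which is not a solute carrier by symbol, were at 21.8 ± 2.61 FPKM and 17.99 ± 1.199 FPKM at 20 months, against 27.8 ± 1.16 FPKM and 14.0 ± 3.20 FPKM at 2 months. The difference of Mpc1 was a called -0.34 as deposited and -0.13 without a call after rescaling, and that of Mpc2 was 0.36 and 0.57, both called.

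Carriers for nucleotide sugars and other endomembrane substrates had the most uniform fall of the large classes. At 20 against 2 months 19 of 22 fell and 2 rose, and 14 fell and 3 rose after rescaling, with class medians of -0.53 and -0.32. The fallers were 86.4% of the class as deposited and 63.6% after rescaling, beside 49.6% and 32.2% of all tested genes. The risers were 9.09% and 13.6%, beside 18.6% and 30.4%. At 10 against 2 months 4 of the class fell and 2 rose (18.2% and 9.09%, beside 11.4% and 19% of all tested genes). Slc35c1, which brings GDP-fucose into the Golgi, held 2.53, 2.19 and 2.46 FPKM at 20 months, against 6.43, 6.28 and 6.23 FPKM at 10 months and 6.45, 6.73 and 6.49 FPKM at 2 months. The younger ages were close together and the 20-month libraries were all far below them. The difference was -1.16 ± 0.06 against 2 months and -1.11 ± 0.06 against 10 months (limma adjusted p = 4.03e-07 and 1.36e-06), or -0.99 and -0.91 after rescaling. Slc35d1, which carries UDP-glucuronic acid and UDP-N-acetylgalactosamine for chondroitin sulphate, read 28.4, 27.1 and 27.5 FPKM at 20 months, against 40.6, 40.5 and 40.7 FPKM at 2 months, with 36.2, 38.5 and 38.4 FPKM at 10 months. It fell by 0.54 ± 0.04 at 20 against 2 months (limma adjusted p = 2.24e-06) and by 0.33 after rescaling.

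Other carriers of proteoglycan building blocks also fell as deposited, though not every call held after rescaling. The sulphate donor carrier Slc35b2 fell by 0.73 at 20 against 2 months, with 15.1 FPKM at 20 months, against 25.6 FPKM at 2 months, and by 0.52 after rescaling. The UDP-galactose carrier Slc35a2 fell by 0.37 and by 0.17 after rescaling, and the UDP-N-acetylglucosamine carrier Slc35a3 by 0.38, which lost its call after rescaling at -0.21. Slc35b3 and Slc35d2 of the same family fell by 0.23 and 0.47, and after rescaling stood at -0.04 and -0.28 without a call. Slc35e1, whose substrate is not established, fell by 1.01 and by 0.80 after rescaling, with 16.9 FPKM at 20 months, against 35.2 FPKM at 2 months. Slc35e3, likewise without an established substrate, was the most abundant gene of the class, with 93.8, 92.1 and 91.6 FPKM at 2 months, 87.5, 86.6 and 83.9 FPKM at 10 months, and 79.1, 82.2 and 74.9 FPKM at 20 months. Its 20 against 2 month difference of -0.23 ± 0.04 (limma adjusted p = 0.000547) was -0.01 after rescaling, and its 20 against 10 month difference was a called -0.13 as deposited and a called 0.13 after rescaling.

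Slc35a1, the carrier of CMP-sialic acid into the Golgi, went against the class. It held 12.8, 12.3 and 13.6 FPKM at 2 months, 15.0, 15.4 and 15.1 FPKM at 10 months, and 21.3, 21.4 and 20.3 FPKM at 20 months. The ages did not overlap. It rose by 0.22 ± 0.05 at 10 months and 0.66 ± 0.05 at 20 months against 2 months (limma adjusted p = 0.00705 and 2.41e-06), the last by 0.87 after rescaling. Slc35e4, the other riser of the class, stood at 22.01 FPKM at 10 months and 21.3 FPKM at 20 months, against 17.9 FPKM at 2 months. Its 20-month difference was 0.23 with all libraries and 0.14 without 20-month replicate 3.

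**Figure D4:**
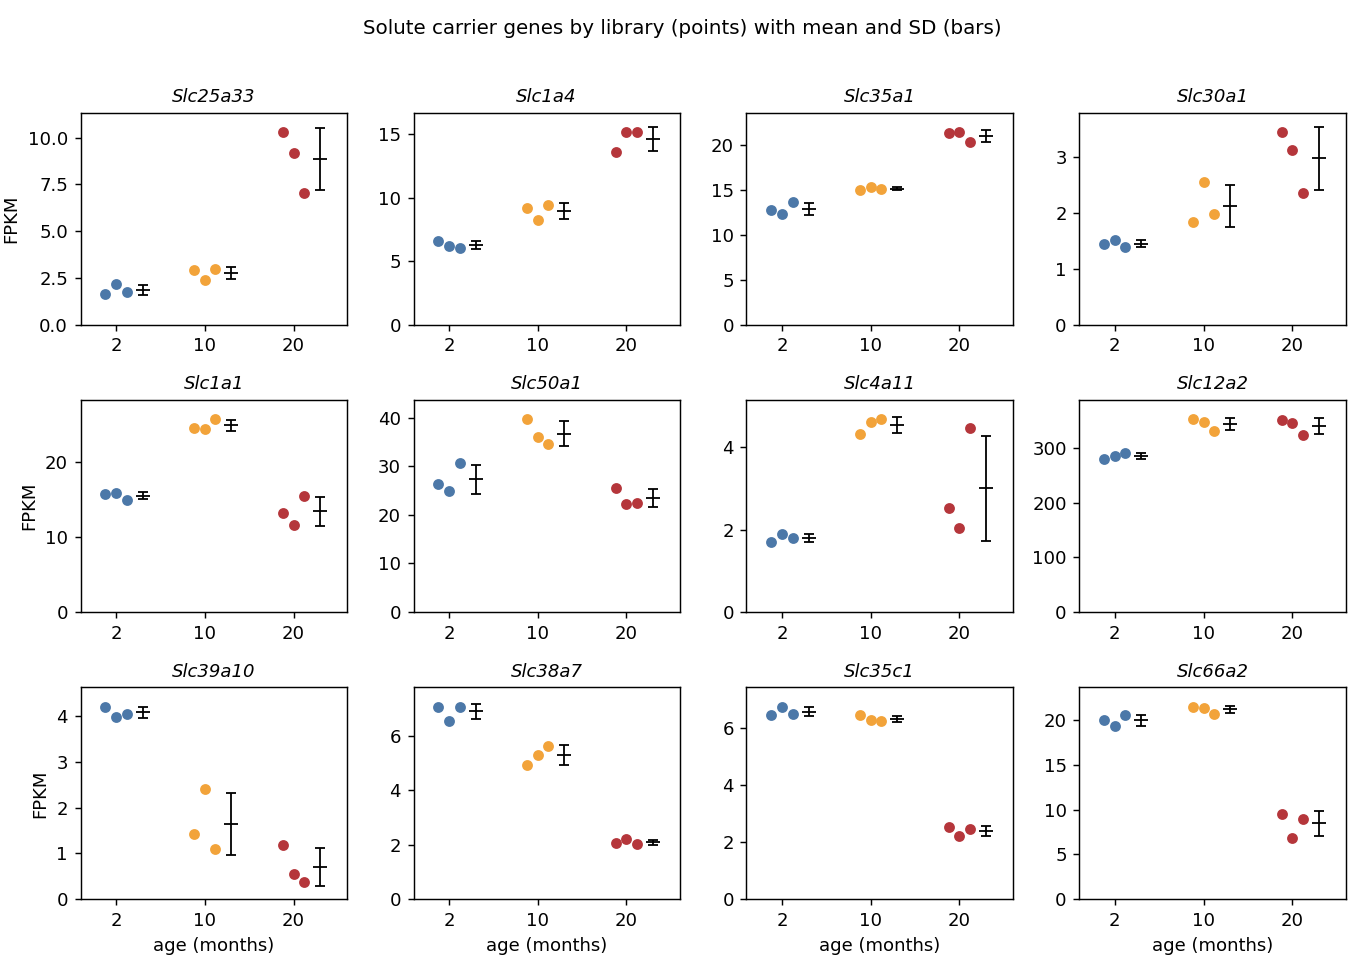
FPKM of 12 solute carrier genes in each library at 2, 10 and 20 months (points), with the mean and SD of the 3 libraries (bars) and each vertical axis starting at 0. The top row holds genes that rose by 20 months, the middle row 3 genes that were highest at 10 months and Slc12a2, and the bottom row genes that fell, with Slc39a10 already low at 10 months and Slc35c1 and Slc66a2 low only at 20 months.

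The isoforms of Slc35a1 changed as well. The transcript table lists at least 2 isoforms for 32 of the 131 genes, and 28 isoforms of 14 of them were abundant enough to test the isoform's share against the other isoforms of the same gene. Slc35a1 has a longer transcript of 1909 bases in 7 exons (ENSRNOT00000011969) and a shorter one of 1421 bases in 8 exons (ENSRNOT00000081150). The shorter made up 25.1, 24.9 and 24.3% of the gene's FPKM at 2 months, 22.5, 26.5 and 23.3% at 10 months, and 5.74, 3.45 and 7.57% at 20 months. The younger ages overlapped and every 20-month library was far below them. On the log2 scale of the ratio between the shorter and the longer transcript, the change was -2.20 ± 0.23 at 20 against 2 months (limma adjusted p = 0.00411) and -2.14 ± 0.23 at 20 against 10 months (0.00383). The longer transcript held 22.8, 23.4 and 21.4 FPKM at 20 months, against 11.4, 11.1 and 12.3 FPKM at 2 months, and the shorter held 1.39, 0.835 and 1.75 FPKM at 20 months, against 3.83, 3.67 and 3.94 FPKM at 2 months. A ratio within a library moves with library scaling only through the 0.5 FPKM added to both terms, and the call held in each of the 12 fits tried, with adjusted p-values of at most 0.0334 in limma.

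At 20 against 2 months 6 member isoforms of 3 genes (Slc35a1, Slc25a16 and Slc25a38) were called, and at 20 against 10 months 6 isoforms of 3 genes (Slc35a1, Slc25a16 and Slc35e4), beside 11.1% and 7.98% of all 2771 tested isoforms. The isoforms of a gene with only a pair of them mirror each other. At 10 against 2 months limma called 0 of the 28, with 4 at an unadjusted p under 0.05, beside 0.253% of all tested isoforms called. The calls of Slc25a16, Slc25a38 and Slc35e4 were each lost in some of the fits that left out a library. The 20-month libraries also had longer reads, whose part in these shares was not tested. Slc25a38, a glycine carrier, had its minor transcript ENSRNOT00000083329 at 19.8, 31.55 and 10.7% at 20 months, against 4.36, 4.199 and 3.303% at 2 months.

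**Figure D5:**
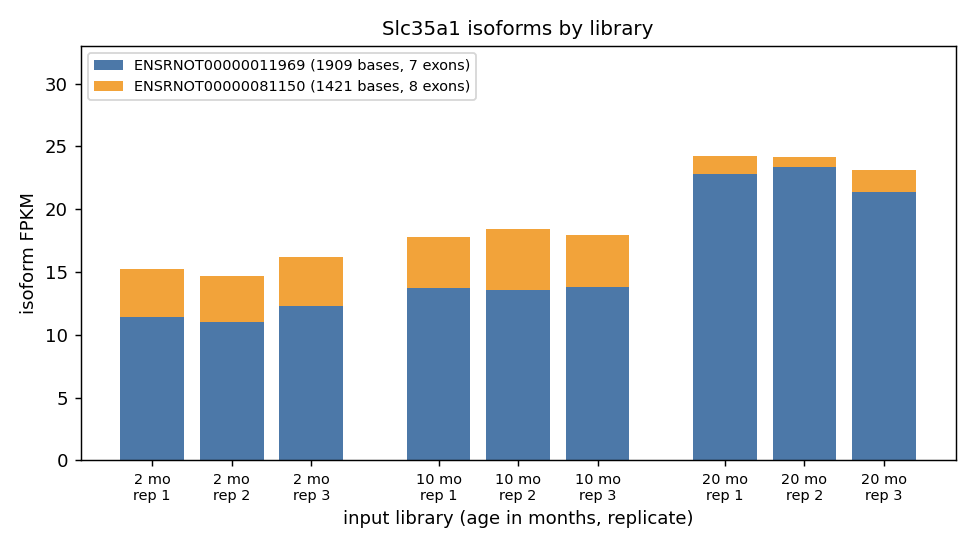
FPKM of both Slc35a1 transcripts in the 9 libraries, stacked, with the longer transcript in blue and the shorter in orange. The shorter transcript makes up 22.5 to 26.5% of the bar at 2 and 10 months and 3.45 to 7.57% at 20 months.

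The class of sugars and sodium-coupled solutes kept 4 genes after the main glucose transporters were left out, and they differed in course. Slc50a1, a glucose transporter of the SWEET family, was highest at 10 months, with 39.7, 36.02 and 34.5 FPKM, against 26.3, 24.9 and 30.6 FPKM at 2 months, and had 25.6, 22.2 and 22.4 FPKM at 20 months. The 10-month libraries were above all others. The rise was 0.42 ± 0.09 at 10 against 2 months (limma adjusted p = 0.00651), and the fall at 20 against 10 months was 0.63 as deposited and 0.38 after rescaling. Slc2a13, a proton-coupled inositol transporter, fell at both older ages, to 4.76 FPKM at 10 months and 3.19 FPKM at 20 months, against 6.25 FPKM at 2 months. Slc16a4, the only carboxylate family gene here, had 5.58, 5.74 and 5.17 FPKM at 2 months, 4.17, 3.79 and 4.46 FPKM at 10 months, and 4.99, 4.01 and 3.93 FPKM at 20 months. It fell by 0.34 ± 0.09 at 10 months and 0.30 ± 0.09 at 20 months against 2 months (limma adjusted p = 0.0186 and 0.0145), and the last was -0.12 and uncalled after rescaling.

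Phosphate transporters gave small differences. Slc20a1 was at 28.1, 29.7 and 29.8 FPKM at 2 months, 30.98, 31.6 and 29.8 FPKM at 10 months, and 33.9, 31.9 and 31.3 FPKM at 20 months. It rose by 0.14 ± 0.04 at 20 against 2 months (limma adjusted p = 0.0148), and by 0.36 after rescaling. Slc20a2, its paralog, held 3.99, 3.80 and 4.09 FPKM at 2 months, 3.70, 4.54 and 4.44 FPKM at 10 months, and 3.09, 3.605 and 3.69 FPKM at 20 months, and was not called against 2 months at either age. The mitochondrial sodium-calcium exchanger Slc8b1 had means between 4.72 and 5.24 FPKM and was not called in any comparison.

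Nucleoside and vitamin transporters, 3 genes, had 2 fallers at 20 against 2 months in both scales (66.7%, beside 49.6% and 32.2% of all tested genes). The nucleoside transporter Slc29a1 stood at 11.5, 12.3 and 12.4 FPKM at 2 months, 8.05, 8.86 and 9.85 FPKM at 10 months, and 8.11, 8.60 and 8.45 FPKM at 20 months. Its libraries at both older ages were below those of 2 months, by 0.40 ± 0.07 and 0.48 ± 0.07 (limma adjusted p = 0.0026 and 0.000227). The ascorbate transporter Slc23a2, which supplies the cofactor of collagen hydroxylases, fell at 20 months to 3.46 FPKM, against 4.95 FPKM at 2 months (-0.42 as deposited and -0.24 after rescaling, both called). The folate transporter Slc19a1 was not called at any age.

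Of 7 lipid and choline transporter genes, 4 fell at 20 against 2 months in both scales and 0 rose as deposited, with 0 higher at an unadjusted p under 0.05 in limma and 1 higher after rescaling. The fallers were 57.1% of the class in both scales, beside 49.6% and 32.2% of all tested genes. The risers were 0% and 14.3%, beside 18.6% and 30.4%. The choline transporter Slc44a1 held 42.0, 41.9 and 42.0 FPKM at 2 months, 45.6, 44.05 and 45.5 FPKM at 10 months, and 39.4, 41.1 and 38.5 FPKM at 20 months. It fell by 0.18 ± 0.03 at 20 against 10 months (limma adjusted p = 0.0015), which turned to 0.07 after rescaling, and it is the gene that was higher than at 2 months after rescaling (0.14, adjusted p = 0.00798). Slc10a7, whose loss causes a skeletal dysplasia with altered glycosaminoglycans in humans, fell by 0.23 at 10 months and 0.77 at 20 months, the last by 0.57 after rescaling, with 8.67 FPKM at 20 months, against 15.5 FPKM at 2 months. The fatty acid transporter Slc27a4 fell by 0.97 at 20 against 2 months and by 0.80 after rescaling, with 2.798 FPKM at 20 months, against 6.39 FPKM at 2 months.

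Among the 11 genes of organic ion, peptide and other families, 10 fell at 20 against 2 months and 7 fell after rescaling. These are 90.9% and 63.6% of the class, beside 49.6% and 32.2% of all tested genes. No gene of this class rose at that age in limma, beside 18.6% of all tested genes as deposited, and 0 were higher at an unadjusted p under 0.05. Slc66a2, a PQ-loop membrane protein, had 9.55, 6.87 and 8.997 FPKM at 20 months, against 21.5, 21.4 and 20.7 FPKM at 10 months and 20.0, 19.3 and 20.5 FPKM at 2 months. The younger ages were level and the 20-month libraries lay far below both. Its difference of -1.24 ± 0.10 at 20 against 10 months (limma adjusted p = 9.74e-06) was the deepest among the 131 in that comparison and was -1.001 after rescaling. Slc15a5, a little-studied member of the peptide transporter family and the most abundant gene of the class, held 83.9, 81.9 and 83.5 FPKM at 2 months, 70.7, 71.7 and 73.7 FPKM at 10 months, and 75.1, 65.7 and 63.5 FPKM at 20 months. It fell by 0.20 ± 0.06 and 0.29 ± 0.06 against 2 months (limma adjusted p = 0.0246 and 0.00157), with -0.07 and no call at 20 months after rescaling. Lysosomal members outside the Lysosome pathway entry fell at 20 against 2 months in both scales, namely the cationic amino acid exporter Slc66a1 by 0.55, the histidine and peptide transporter Slc15a4 by 0.72 and Slc49a4 by 0.77. After rescaling the differences were -0.41, -0.55 and -0.59.

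Pumps, subunits and regulators that work with these carriers were taken from a list of 35 genes, of which 27 were tested. At 10 against 2 months 8 rose and 4 fell, or 29.6% and 14.8% of the tested genes of the list, beside 19% and 11.4% of all tested genes. At 20 against 2 months 4 rose and 17 fell (14.8% and 62.96%, beside 18.6% and 49.6%), and after rescaling 8 rose and 9 fell (29.6% and 33.3%, beside 30.4% and 32.2%). At 20 against 10 months 4 rose and 19 fell (14.8% and 70.4%, beside 11.4% and 53.3%), and after rescaling 8 rose and 11 fell (29.6% and 40.7%, beside 25.9% and 26.6%). The sodium pump subunit Atp1b3, part of the pump that sets the sodium gradient that drives many carriers, was at 353.8 ± 26.96 FPKM at 20 months, against 433.1 ± 6.24 FPKM at 2 months (difference -0.29, limma adjusted p = 0.000771). After rescaling its difference was -0.07 and not called (0.199). Bsg, the chaperone of lactate transporters, fell to 935.1 ± 57.5 FPKM at 20 months, against 1398 ± 25.9 FPKM at 2 months, by 0.58 as deposited and by 0.36 after rescaling. The kinase gene Wnk1, which controls chloride cotransporters in response to chloride and osmolarity, was at 419.6 ± 2.47 FPKM at 10 months, against 353.6 ± 3.31 FPKM at 2 months (0.25, limma adjusted p = 0.000385), and Sgk1, a kinase that keeps several carriers at the cell surface, at 6.30 ± 0.32 FPKM at 10 months, against 10.1 ± 0.215 FPKM at 2 months (-0.60, 0.000381). At 20 months Wnk1 held 342.6 ± 10.56 FPKM and Sgk1 held 10.14 ± 1.035 FPKM. Neither was called at 20 against 2 months as deposited (-0.05 and 0.01), and both were called higher after rescaling (0.17 and 0.21).

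Promoter windows from RefSeq (assembly GRCr8, 250 bases before to 50 after the start site) were found for 101 of the 131 genes. They were searched on both strands for TGATGNAAN, the core of the amino acid response element bound by Atf4. They were also searched for TGCNCNC, a loose form of the metal response element core bound by Mtf1. Any base was allowed at each N, so some TGCNCNC matches are not that core. TGATGNAAN was in 4 of 101 member windows (3.96%) and in 3.97% of all 33469 windows, and TGCNCNC was in 55 of 101 (54.5%) and in 49.6% of all windows. The 4 windows with TGATGNAAN were those of Slc38a1, Slc1a4, Slc35a2 and Slc49a4. The windows of 3 genes that the results turn on are shown, with matches in capitals: Slc1a4 for TGATGNAAN (chr14:98761513-98761812, minus strand, match on the reverse strand at position -236 from the start site), Slc30a1 for TGCNCNC (chr13:106021769-106022068, plus strand, 2 matches on the reverse strand) and Slc39a10 (chr9:62405183-62405482, plus strand), which holds neither.
Slc1a4: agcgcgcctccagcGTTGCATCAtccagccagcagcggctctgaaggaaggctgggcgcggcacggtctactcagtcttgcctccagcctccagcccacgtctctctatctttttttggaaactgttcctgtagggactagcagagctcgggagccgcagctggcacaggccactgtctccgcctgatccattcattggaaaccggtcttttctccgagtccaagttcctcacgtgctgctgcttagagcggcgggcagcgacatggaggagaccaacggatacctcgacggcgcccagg
Slc30a1: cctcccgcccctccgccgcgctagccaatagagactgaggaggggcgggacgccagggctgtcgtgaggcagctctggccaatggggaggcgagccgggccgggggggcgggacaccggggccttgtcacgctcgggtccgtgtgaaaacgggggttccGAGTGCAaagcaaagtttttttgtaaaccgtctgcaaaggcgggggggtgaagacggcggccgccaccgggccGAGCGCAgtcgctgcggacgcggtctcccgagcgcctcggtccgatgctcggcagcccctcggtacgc
Slc39a10: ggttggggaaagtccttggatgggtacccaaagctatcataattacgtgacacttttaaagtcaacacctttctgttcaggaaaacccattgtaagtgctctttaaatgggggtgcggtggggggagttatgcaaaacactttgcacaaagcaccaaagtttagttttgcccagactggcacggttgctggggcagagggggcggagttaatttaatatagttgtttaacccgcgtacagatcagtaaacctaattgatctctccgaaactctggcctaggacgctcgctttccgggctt
A match only says that these letters stand in the window. Atf4 itself was at 509.5 ± 24.15 FPKM at 20 months and 584.9 ± 4.23 FPKM at 10 months, against 562.0 ± 1.04 FPKM at 2 months. Its 20 against 2 month difference was -0.14 as deposited (limma adjusted p = 0.00547) and 0.08 without a call after rescaling (0.0555), so its direction depends on the scale.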

How the data were processed

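RNA abundance was measured in 9 input libraries of rat nucleus pulposus, 3 at each of 2, 10 and 20 months. The deposited gene and transcript tables give FPKM per library, per the file headers, and the authors' steps are known only as a list: StringTie 1.3.4d, HISAT2 2.0.4, cutadapt 1.9, edgeR and DESeq2 appear, with no roles, in the submitters' processing notes. The sources used here give no genome build, annotation version or strandedness, so reads of overlapping and antisense genes cannot be told apart. FPKM are not counts, so no count model was run. The depth of 3.53 to 5.04 gigabases per library was taken from the coverage and FPKM in the deposited transcript table (signal, mean reads per base, per the file headers). As estimated from it, the fragments behind Slc39a10 ranged from 37.3 to 455 per library.

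Genes with at least 1 FPKM in at least 3 of 9 libraries (11708) were fitted in limma 3.58.1 (R 4.3.3) on log2(FPKM + 1), with 1 model of age over all 9 libraries, a mean-variance trend and Benjamini-Hochberg adjustment over all genes fitted. A call is an adjusted p under 0.05. Differences are older minus younger on the log2(FPKM + 1) scale, which understates changes of low genes, and ± in a difference is the standard error. Transcript shares were tested likewise as log2 ratios of a transcript to the other transcripts of its gene, with 0.5 added to each, for genes with a summed FPKM of at least 5 and transcripts with 10 to 90% of it. The code was tested on simulated data with known changes. Alternatives were a pseudocount of 0.1, no filter, median-of-ratios rescaling, only the 2 ages compared, a replicate block and leaving out each library.

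The genes, substrate classes and other lists were chosen with earlier results of these data known. Values in every library are given for the 5 rising and 5 falling genes per comparison with the largest differences among those called with no overlap between ages, for the most abundant gene of each class, and for a list of carriers of interest named in the design. All other genes are given by counts, means and single differences. Some results are not reported here.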

Additional observations from a re-analysis of the deposited data

How the results depend on the processing

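Rescaling by the median of ratios moved the median of all tested genes by over 0.1 in both comparisons with 20 months. At 20 against 10 months it gave 23 solute carrier genes higher and 52 lower, in place of 8 and 90. Among named genes the 20 against 10 month difference changed sign for Slc38a2 (0.068), Slc44a1 (0.072), Slc25a4 (0.162), Slc35e3 (0.127), Slc12a4 (0.093) and Slc12a7 (0.084). The 20 against 2 month difference changed sign for Slc6a8 (0.012), Slc12a4 (0.063) and Slc12a7 (0.1). Over all called members 4 changed sign at 20 against 2 months and 15 at 20 against 10 months, and no other alternative changed a sign of a called member. Leaving out 1 library at a time gave 13 to 26 risers and 16 to 37 fallers at 10 against 2 months (21 and 30 with all). Without 2-month replicate 1 there were 13 and 18, and without 10-month replicate 1 there were 13 and 16. Fallers numbered 17 without 2-month replicate 2 and 19 without 10-month replicate 2. In the fits without these named libraries 2504 to 2561 of all tested genes were called, in place of 3551. Leaving out 1 library gave 12 to 17 risers and 79 to 89 fallers at 20 against 2 months, and 7 to 8 and 77 to 93 at 20 against 10 months. In these fits 25, 15 and 17 called members lost their call at least once at 10 against 2, 20 against 2 and 20 against 10 months, and 0 changed sign. Named calls lost at least once were, at 10 against 2 months, those of Slc25a33, Slc6a8, Slc15a5, Slc16a4, Slc10a7, Slc2a13, Slc35e4, Slc7a6, Slc6a12 and Slc38a6, at 20 against 2 months those of Slc4a11, Slc6a12, Slc12a7, Slc16a4, Slc20a1 and Slc35e4, and at 20 against 10 months those of Slc4a11, Slc25a4, Slc25a37, Slc35e3 and Slc39a10. Calls of isoform shares, summed over the comparisons, were 12 with all libraries, 4 to 10 with 1 left out, and 4 with a replicate block, where the remaining calls were those of Slc35a1. Replicate numbers recur across ages with no stated shared source, and deviations of same-numbered libraries correlated at -0.040 to 0.049, so the numbers were not taken as pairs. With the replicate block, 17 members rose and 26 fell at 10 against 2 months, 16 and 85 at 20 against 2 months, and 8 and 88 at 20 against 10 months. With only the 2 ages fitted, 4807 of all tested genes were called at 10 against 2 months, against 3551 when the 20-month libraries shared the fit. The comparisons with 20 months went the other way. There 7578 were called at 20 against 2 months, against 7986, and 7082 at 20 against 10 months, against 7576. Among called members 7 and 12 lost their call in these 2 comparisons. The cause of these changes was not tested. Having 3 libraries per age and few fragments behind low genes limits what could be detected.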
